A study of Mus musculus with 2 samples.

Results

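The Snrpn and Ube3a imprinted domain on mouse chromosome 7 was examined for DNA methylation in the epiblast. The members are the 6 protein-coding genes Snrpn, Ube3a, Ndn, Magel2, Mkrn3 and Peg12, out of 49554 genes of the RefSeq gene table on the autosomes and X. They were chosen by name, and reads were counted at both gene ends, over the body and at CpG-dense regions of each. The far end of Snrpn, with 19 read counts, did not reach the minimum set below. The material was the epiblast of wild-type C57Bl6/J female (XX) embryos from natural matings at embryonic day 6.5, dissected by hand from the extraembryonic tissue. The labels list 2 samples, both of this group. The 1 table has no header and does not say which sample a read came from. It was taken as both samples together, which is an assumption. Replicate error is therefore unknown for every value, and no p-value was computed.

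In an imprinted domain the maternal and paternal copies of a gene are used unequally. This domain is governed from an imprinting control region at the start of Snrpn, which is methylated in the oocyte and stays methylated on the maternal copy. From the unmethylated paternal copy, Snrpn, Ndn, Magel2, Mkrn3 and Peg12 are expressed, together with the long transcript Snhg14, which carries arrays of small nucleolar RNAs (snoRNAs) and runs antisense into Ube3a. Ube3a is expressed mainly from the maternal copy in neurons. Loss of the paternal or maternal contribution in the human counterpart causes Prader-Willi or Angelman syndrome.

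The table counts methylated and unmethylated reads at each CpG, from whole-genome bisulfite sequencing. A level is the methylated share of all read counts in a region, in percent. Each range beside a level is its 95% interval (Clopper-Pearson, exact), which holds for counting error alone. A read can cross several neighbouring CpGs and adds a count at every one. Whether duplicate reads were removed is not given, and counts per CpG cannot show it. For both reasons these intervals can be too narrow. A region was called low with an interval wholly under 20%, intermediate within 30% to 70%, high over 70%, and unresolved otherwise. To count as measured, a region needed reads at 5 or more CpGs and a minimum of 20 read counts. Coordinates are those of mm10 (GRCm38.p6). The strain is inbred and the table holds no single reads, so methylation of 1 parental copy cannot be told apart from methylation of both copies in some of the cells.

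Depth sets the limit here. Over the autosomes and X, 89.2% of CpGs had a read, with 6 reads at the median CpG. From the start of Ube3a to the end of Peg12, a span of 3.24 Mb, 68.8% of 17859 CpGs had a read, with 3.45 reads per CpG on average against 6.54 on the autosomes. Marker genes were read beside the epiblast label. The CpG-denser end of Utf1, an epiblast chromatin factor gene, was at 6.60%. Since 56.1% of autosomal protein-coding starts were called low at this width, that value alone does not mark the epiblast. The corresponding window of Elf5, a trophoblast regulator that is methylated in epiblast and unmethylated in trophoblast, was at 77.1% (71.4% to 82.2%), and the 300 bp at another annotated start of Elf5, with 10 CpGs, were at 54.2% (40.8% to 67.3%). The pluripotency genes Pou5f1 and Dppa4, also taken as markers of low level in epiblast, were at 20.1% (16.8% to 23.7%) and 51.5% (42.8% to 60.1%). Neither was called low, and the 300 bp at another annotated start of Pou5f1 were at 50.7% (38.2% to 63.2%). The share of other cells in the samples was not tested.

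The annotated starts carry the contrast of the domain, and their RefSeq sequences (GRCm38.p6) are shown first. Each runs 5′ to 3′ in the direction of transcription, from 250 bases before the start to 50 bases from it on, with every CpG in capitals. Snrpn has 4 annotated starts, numbered here in the order of transcription, and the most downstream one is also that of Snurf. Starts 2 and 3 are shown as near copies of each other, picked after their levels were seen, start 4 as the imprinting control region, and the other 5 genes as the starts to be compared with it.
Snrpn start 2 (chr7:60140176-60140475, minus strand): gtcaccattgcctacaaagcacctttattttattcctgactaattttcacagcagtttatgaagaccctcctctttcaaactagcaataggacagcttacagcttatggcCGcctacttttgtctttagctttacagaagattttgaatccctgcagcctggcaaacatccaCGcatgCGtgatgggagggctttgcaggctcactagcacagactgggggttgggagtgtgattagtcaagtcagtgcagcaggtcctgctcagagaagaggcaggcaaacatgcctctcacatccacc
Snrpn start 3 (chr7:60047929-60048228, minus strand): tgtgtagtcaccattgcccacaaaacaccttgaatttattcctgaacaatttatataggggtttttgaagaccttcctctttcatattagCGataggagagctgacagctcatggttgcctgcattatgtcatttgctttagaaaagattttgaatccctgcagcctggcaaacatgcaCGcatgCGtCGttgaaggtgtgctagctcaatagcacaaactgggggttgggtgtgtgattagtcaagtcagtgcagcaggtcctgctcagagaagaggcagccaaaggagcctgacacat
Snrpn start 4 (chr7:60005150-60005449, minus strand): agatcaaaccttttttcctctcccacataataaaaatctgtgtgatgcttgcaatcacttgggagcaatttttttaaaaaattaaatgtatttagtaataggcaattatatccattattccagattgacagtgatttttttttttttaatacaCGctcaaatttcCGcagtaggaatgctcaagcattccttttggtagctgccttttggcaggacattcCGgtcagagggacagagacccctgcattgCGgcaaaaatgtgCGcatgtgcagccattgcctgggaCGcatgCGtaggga
Ube3a start (chr7:59228500-59228799, plus strand): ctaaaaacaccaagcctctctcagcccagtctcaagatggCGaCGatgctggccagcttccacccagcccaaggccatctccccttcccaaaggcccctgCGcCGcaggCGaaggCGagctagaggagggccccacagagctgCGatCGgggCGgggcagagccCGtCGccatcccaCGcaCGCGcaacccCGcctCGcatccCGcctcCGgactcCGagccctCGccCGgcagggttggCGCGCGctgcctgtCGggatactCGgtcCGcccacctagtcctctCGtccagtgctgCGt
Ndn start (chr7:62348027-62348326, plus strand): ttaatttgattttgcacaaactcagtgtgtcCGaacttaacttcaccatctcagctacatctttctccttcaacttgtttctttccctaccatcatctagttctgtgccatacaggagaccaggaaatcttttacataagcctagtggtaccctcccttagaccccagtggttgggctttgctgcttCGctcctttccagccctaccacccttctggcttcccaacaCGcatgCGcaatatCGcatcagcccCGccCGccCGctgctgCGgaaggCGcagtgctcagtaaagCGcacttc
Magel2 start (chr7:62376729-62377028, plus strand): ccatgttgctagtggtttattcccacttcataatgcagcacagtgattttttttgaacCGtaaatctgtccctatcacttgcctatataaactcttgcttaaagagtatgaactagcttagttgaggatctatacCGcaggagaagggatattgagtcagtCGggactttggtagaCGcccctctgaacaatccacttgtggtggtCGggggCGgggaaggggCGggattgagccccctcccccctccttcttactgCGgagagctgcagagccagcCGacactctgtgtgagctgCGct
Mkrn3 start (chr7:62420104-62420403, minus strand): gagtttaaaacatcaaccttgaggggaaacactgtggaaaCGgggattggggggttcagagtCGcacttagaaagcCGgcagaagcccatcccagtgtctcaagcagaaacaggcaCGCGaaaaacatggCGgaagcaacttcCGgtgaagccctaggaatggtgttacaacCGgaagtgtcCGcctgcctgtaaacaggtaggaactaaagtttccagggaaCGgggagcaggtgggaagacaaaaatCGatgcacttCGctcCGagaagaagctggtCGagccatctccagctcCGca
Peg12 start (chr7:62464461-62464760, minus strand): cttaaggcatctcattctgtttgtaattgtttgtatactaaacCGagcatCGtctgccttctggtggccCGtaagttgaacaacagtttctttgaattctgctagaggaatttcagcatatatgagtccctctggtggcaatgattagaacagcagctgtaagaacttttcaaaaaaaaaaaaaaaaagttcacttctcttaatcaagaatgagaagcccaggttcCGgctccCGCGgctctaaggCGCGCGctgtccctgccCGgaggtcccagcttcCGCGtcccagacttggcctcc
In these windows every CpG of the sequence fell on a CpG of the deposited table.

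Snrpn encodes SmN, a core protein of the spliceosome, and Snurf is read from the same transcript. At start 4 (chr7:60005150-60005449, minus strand), the 7 CpGs were methylated in 33 of 68 read counts, 48.5% (36.2% to 61.0%). In the order of the printed sequence the CpGs had 5 of 6, 4 of 5, 7 of 11, 6 of 15, 5 of 14, 2 of 8 and 4 of 9 methylated. The 3 most upstream CpGs thus had the highest levels of this window.

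The 3 upstream starts of Snrpn are CpG-poor and fell under the minimum of 5 CpGs, so their values are only listed. Start 1 (chr7:60450128-60450427) was methylated in 4 of 13 read counts, 30.8% (9.09% to 61.4%). Start 2 (chr7:60140176-60140475) was methylated in 15 of 35, 42.9% (26.3% to 60.6%), with 4 of 8, 6 of 14 and 5 of 13 at its CpGs. Start 3 (chr7:60047929-60048228) was methylated in 34 of 44, 77.3% (62.2% to 88.5%), with 4 of 8, 12 of 14, 8 of 11 and 10 of 11. The intervals of starts 2 and 3 did not overlap, but CpGs a few bases apart, as in both windows, can count the same reads. These 2 starts were also picked after their levels were seen, so no difference between them is read from this. The interval of start 1 overlapped that of start 2, and all 3 starts rest on few CpGs. The sequences of starts 2 and 3 were 81.1% identical in a global alignment. Starts 1, 2 and 3 shared 79.8% to 81.4% of aligned columns pairwise, against 50.6% to 52.9% with start 4. Whether reads were shared between these copies was not tested.

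The CpG-dense region at start 4 was the only 1 of the 9 found over Snrpn that held an annotated start. CpG-dense here means 20 or more CpGs within 500 bp. Windows moved by 100 bp over the gene and 20 kb on either side, and overlapping ones were joined. This region (chr7:60004301-60005300) has 43 CpGs, all with reads, and was methylated in 148 of 354 read counts, 41.8% (36.6% to 47.1%). The plus strand was at 43.4% over 122 read counts and the minus strand at 40.9% over 232. Keeping 1 CpG per 100 bp gave 40.9% (30.5% to 51.9%). With at least 10 reads per CpG the level was 33.0% (26.7% to 39.8%) and the call became unresolved.

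Most single CpGs of that region were neither near 0% nor near 100%. Of its 35 CpGs with at least 5 reads, 29 lay within 20% to 80%, 5 below, 1 above, and 0 had no methylated read. The lowest was at 15.4%, the quartiles were 25%, 50% and 57.1%, and the highest was at 83.3%. Neighbouring CpGs came in runs with like counts. Those at 52, 54, 56 and 75 bp from the start each had 6 of 11 methylated, those at 298, 328 and 337 bp had 2 of 11, and those at 485 and 487 bp had 6 of 9. In steps of 500 bp from the start on, the level was 40.3% (33.6% to 47.2%), 38.0% (29.6% to 46.9%), 28.3% (19.4% to 38.6%) and 42.3% (30.6% to 54.6%). By their intervals the first and the last of these steps were intermediate and the other 2 unresolved.

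**Figure D1:**
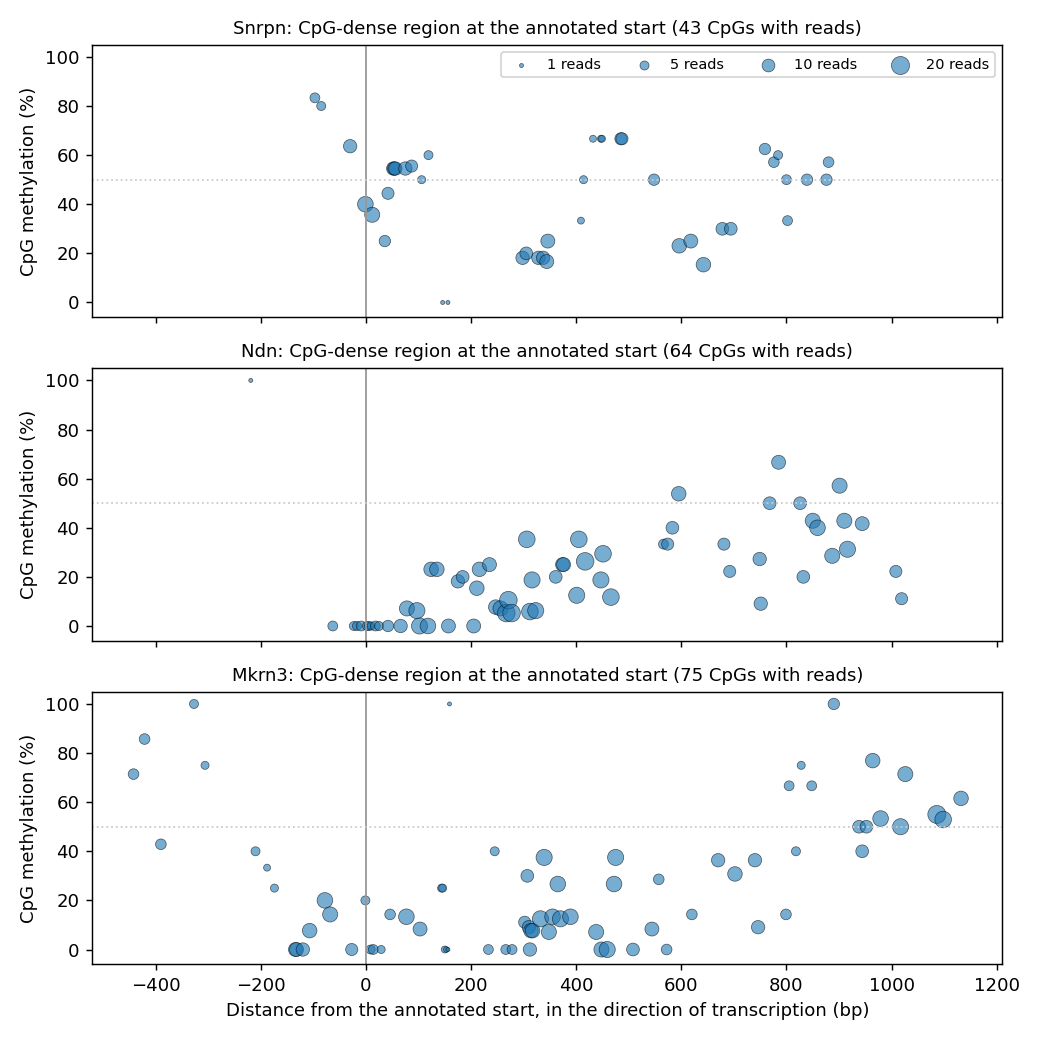
Methylation (%) of single CpGs in the CpG-dense regions at the starts of Snrpn (43 CpGs), Ndn (64) and Mkrn3 (75), by distance from the annotated start in bp, with the area of a point set by its reads. Snrpn has runs of CpGs at middle levels along the region, whereas CpGs of Ndn and Mkrn3 around the start are mostly near 0% and higher ones lie farther away.

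Upstream of it, Snrpn spans 8 more CpG-dense regions that hold no annotated start of the gene, and their levels ran from 3.96% to 90%. At 150.5 kb from the start, a region over the gene Gm7367 (chr7:60155201-60156100) was at 36.5% (30.7% to 42.7%, 260 read counts). At 346.1 kb (chr7:60350901-60351600) the level was 48.6% (40.1% to 57.1%, 142 read counts), and at 410.4 kb (chr7:60415201-60415900) it was 52.9% (46.6% to 59.0%, 263 read counts).

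A region 386.3 kb upstream (chr7:60391001-60391900) stood apart at 3.96% (1.83% to 7.39%, 227 read counts), and 14 of its 17 CpGs with at least 5 reads had no methylated read. The gene table lists no gene there other than Snrpn and Snhg14 themselves. The region at 239.3 kb was at 14.7% (9.33% to 21.6%), and the other 3 had 20 to 41 read counts. Of 70 CpGs in the region at 158.1 kb only 9 had reads, all on the minus strand.

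Of the 9 regions of Snrpn, 4 were called intermediate, 1 low, 0 high and 4 unresolved. Of the 9 near the other members, 1 was intermediate, 3 low, 1 high, 3 unresolved and 1 not measured. The intermediate region lies near Ndn (chr7:62334901-62335900), at 44.8% (34.1% to 55.9%), and holds no annotated start. Another without an annotated start, near Mkrn3 (chr7:62406501-62407400), was unresolved at 28.7% (21.6% to 36.6%). Among 40921 measured autosomal CpG-dense regions, 8.51% were called intermediate, 37.0% low and 30.9% high. The call at 150.5 kb became unresolved with at least 10 reads per CpG, with the minus strand alone and with 1 CpG per 100 bp, and that at 346.1 kb in the last 2 of these. Its plus and minus strands were at 41.3% and 62.0%. The call at 410.4 kb was intermediate under every alternative that gave an interval and kept the region.

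**Figure D2:**
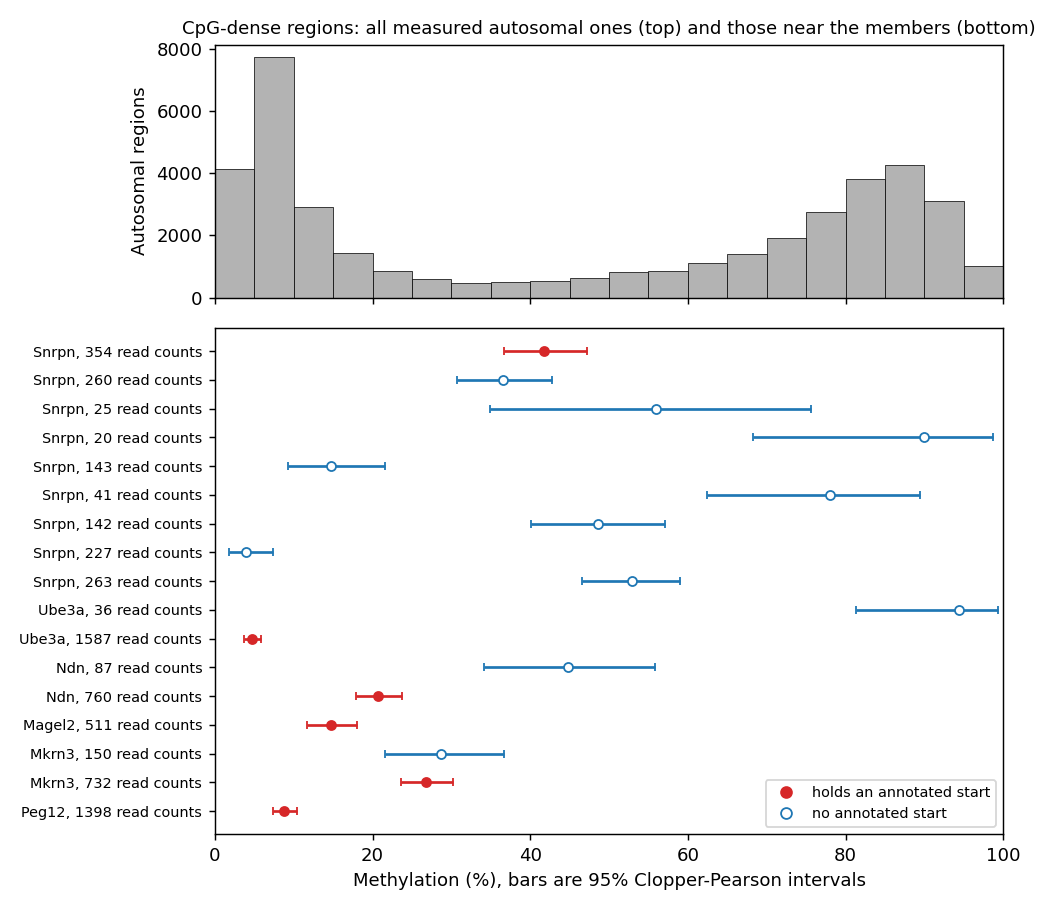
Number of autosomal CpG-dense regions by methylation level in steps of 5% (top), and level with 95% Clopper-Pearson interval of the measured regions within 20 kb of each member (bottom; red points hold an annotated start). Autosomal regions pile up near both ends of the scale, and the region at the start of Snrpn, at 41.8%, lies between the piles.

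Ube3a encodes a ubiquitin ligase, and its start was nearly free of methylation. The window of 1 kb on either side (chr7:59227750-59229750) was methylated in 75 of 1576 read counts, 4.76% (3.76% to 5.93%), with reads at all 138 CpGs. The printed 300 bp were at 3.21% (1.40% to 6.23%) over 29 CpGs. Its CpG-dense region (chr7:59228201-59230000) was at 4.66%, and 69 of 129 CpGs with at least 5 reads had no methylated read. The body of Ube3a beyond 1 kb from each end was at the other extreme, at 83.8% (81.3% to 86.1%, 934 read counts). The part of the body that Snhg14 overlaps in antisense was at 88.7% (85.3% to 91.5%, 432 read counts). The far end (chr7:59309837-59311837) had 18 of 21 methylated. With the ends included, the body came to 38.9%, as the CpG-dense start then held most of the read counts. A CpG-dense region upstream of the gene (chr7:59210201-59211000) was called high at 94.4%, with reads at 13 of 32 CpGs, all on the minus strand.

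The other 4 members are intronless genes in a cluster, with CpG-dense starts 2343.5 to 2458.9 kb from start 4 of Snrpn. Ndn encodes necdin, a growth suppressor of neurons, and Magel2 a related MAGE protein that works with a ubiquitin ligase in protein recycling. Mkrn3 encodes a makorin RING finger protein that restrains the onset of puberty, and Peg12 a Frat-family protein that binds GSK3 in Wnt signalling. In later tissue the starts of Ndn and Mkrn3 are known to be methylated on the maternal copy. In these data the 300 bp at the starts of Ndn and Mkrn3 were called low. The stretch from 500 to 1000 bp after each of these 2 starts was intermediate.

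At the start of Ndn, the printed 300 bp (chr7:62348027-62348326) were methylated in 1 of 56 read counts, 1.79% (0.0452% to 9.55%). That methylated count came from the CpG nearest the upstream edge, and the other 10 CpGs had 0 methylated among 4 to 8 reads each. For Peg12 (chr7:62464461-62464760) it was 5 of 68, 7.35% (2.43% to 16.3%), of which 4 came from the 3 most upstream CpGs. Mkrn3 (chr7:62420104-62420403) had 12 of 125, 9.60% (5.06% to 16.2%). Magel2 (chr7:62376729-62377028) had 10 of 87, 11.5% (5.65% to 20.1%), spread over 8 of its 10 CpGs.

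By the calls at 300 bp, Ube3a, Ndn, Mkrn3 and Peg12 were low, Magel2 was unresolved and start 4 of Snrpn was intermediate. On the autosomes 76.0% of 14279 measured protein-coding starts were called low in the same window. The interval of start 4 of Snrpn lay above those of the other 5 genes.

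Levels climbed from these starts into the gene. For Ndn the first 500 bp were at 13.6% (10.7% to 16.9%), the next 500 bp at 38.8% (32.3% to 45.6%) and the 500 bp after that at 46% (33.4% to 59.1%). For Magel2 the same steps were at 12.6% (9.57% to 16.2%), 54.4% (43.6% to 65.0%) and 72.3% (63.1% to 80.4%). Mkrn3 had 13.8% (10.3% to 17.9%), 38.8% (31.7% to 46.3%) and 66.4% (58.1% to 74.1%). Peg12 stayed low for longer, at 7.95% (5.86% to 10.5%), 7.09% (5.35% to 9.17%) and then 35.5% (24.9% to 47.3%). Ube3a was at 4.52%, 3.65% and 12.5%.

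These steps were set beside 10375 autosomal protein-coding starts whose first 500 bp were low and held at least 20 CpGs. These starts had a median of 4.63% (quartiles 2.93% and 6.90%) in the first 500 bp. In the next 500 bp 9683 of them were measured, with a median of 12.1% (6.25% and 24.7%). In the 500 bp after that 7169 were measured, with a median of 46.4% (17.6% and 68.9%). Ndn, Magel2 and Mkrn3 lay above the upper quartile in both of the first steps. From 1000 to 1500 bp only Magel2 did, while Mkrn3 was between the median and the upper quartile and Ndn just under the median. Peg12 was above the upper quartile in the first step. From 500 to 1000 bp and from 1000 to 1500 bp Peg12 was between the lower quartile and the median. Ube3a was between the lower quartile and the median in the first step and below the lower quartile in those later steps. From 1500 to 2000 bp, 5779 of the autosomal starts were measured, with a median of 71.4% (44.9% and 82.1%). There Magel2, at 66.1%, and Mkrn3, at 68.6%, were between the lower quartile and the median. Peg12, at 32.2%, was below the lower quartile. Ndn and Ube3a were not measured from 1500 to 2000 bp.

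**Figure D3:**
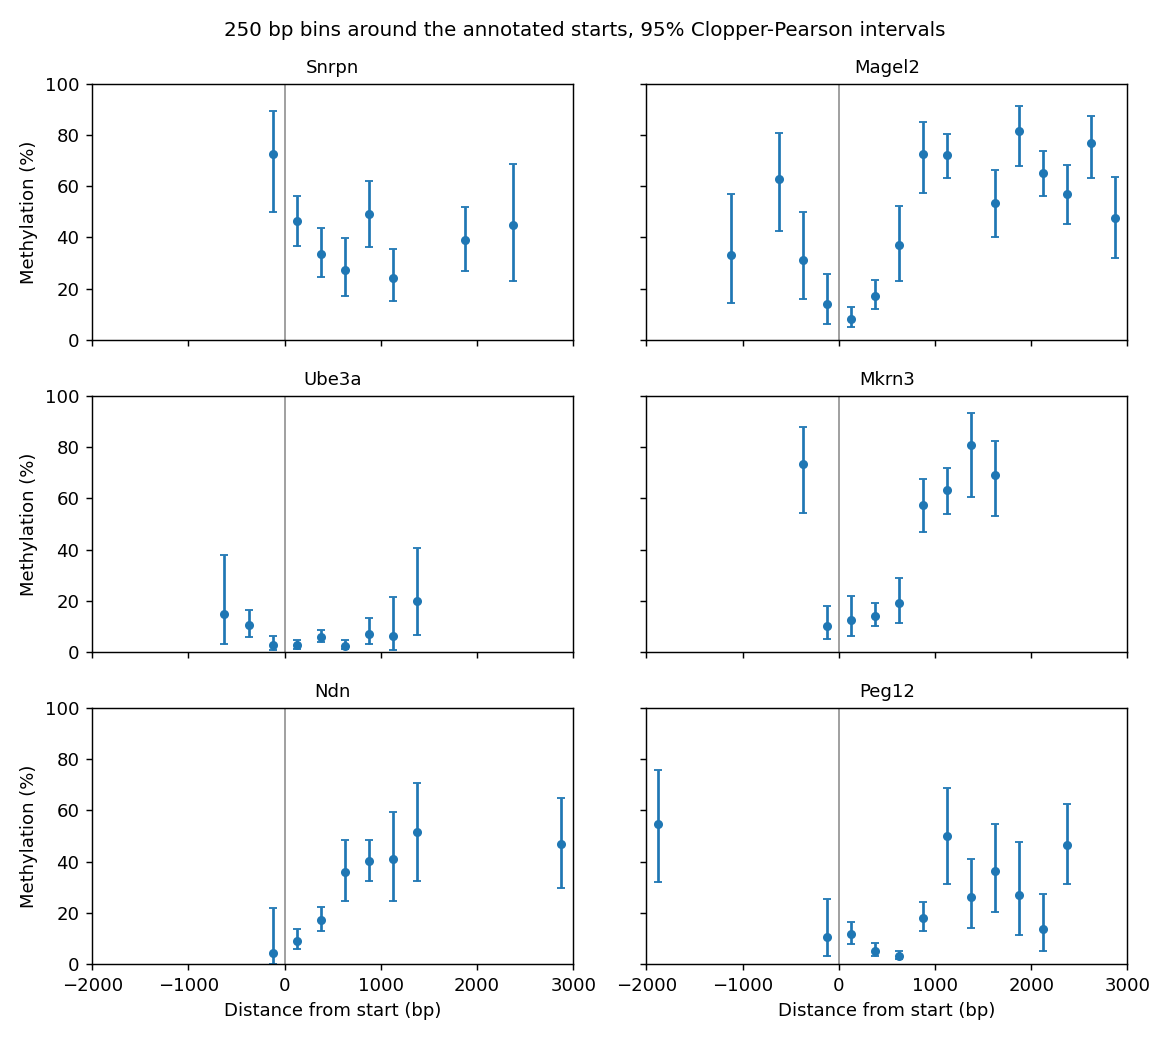
Methylation (%) in 250 bp bins with at least 20 read counts around the annotated start of each member (start 4 for Snrpn), in the direction of transcription, with 95% Clopper-Pearson intervals. In the first 1000 bp after the start Magel2 and Mkrn3 go above 50%, Ndn reaches 40.1%, Peg12 and Ube3a stay under 20%, and Snrpn has no bin under 20%.

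The width of the window therefore bears on these levels. The windows of 1 kb on either side of the start were at 20.9% (18.0% to 24.0%) for Ndn, 22.1% (18.9% to 25.5%) for Magel2, 24.3% (21.1% to 27.7%) for Mkrn3 and 7.92% (6.55% to 9.49%) for Peg12. With 250 bp on either side they were at 8.80%, 9.56%, 11.2% and 11.5%, and all 4 were then called low. Narrowing lowered the level of Ndn, Magel2 and Mkrn3, and gave a higher one for Peg12. Among 2800 autosomal protein-coding start windows of the wider kind with 60 to 80 CpGs, the median was 11.8% (quartiles 8.78% and 16.0%). Ndn, Magel2 and Mkrn3, with 64, 63 and 75 CpGs, lay above the upper quartile. Of the 6 members, 2 start windows were called low, Ube3a and Peg12, 0 intermediate, 0 high and 4 unresolved. Over 19066 autosomal protein-coding starts, 56.1% were called low, 6.56% intermediate and 9.16% high. The unresolved 4 included the upstream end of Snrpn, at 57.7% (36.9% to 76.6%) over only 26 read counts.

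Inside the CpG-dense regions of the cluster, single CpGs were counted by their level. At Ndn (chr7:62348001-62349300, 20.7% in all), 14 of 62 CpGs with at least 5 reads had no methylated read, 31 were under 20% and 31 within 20% to 80%. At Mkrn3 (chr7:62419001-62420600, 26.8%), 33 of 64 were under 20%, 28 within 20% to 80% and 3 above, and the 3 lay at -421, -327 and 890 bp from the start. At Magel2 (chr7:62376701-62377700, 14.7%), 30 of 40 were under 20%. At Peg12 (chr7:62463201-62464900, 8.80%), 88 CpGs were under 20%, 18 within 20% to 80%, and 46 had no methylated read. The mean of Mkrn3 was thus made of CpGs under 20% and CpGs within 20% to 80% in like numbers, whereas 29 of the 35 CpGs at the start of Snrpn lay within 20% to 80%.

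Beyond their starts, the cluster genes had higher levels than at them. The far ends, 1 kb on either side, were at 43.5% (37.6% to 49.6%) for Ndn, 51.7% (43.3% to 60.1%) for Magel2, 65.5% (51.9% to 77.5%) for Mkrn3 and 41.7% (35.0% to 48.7%) for Peg12. By these intervals the far end of Mkrn3 was unresolved and the other 3 were intermediate. No share over the far ends of other genes was taken, so these calls are not read as particular to the cluster. Ndn is 1652 bp long, so its far-end window overlaps its start window in part. The bodies without 1 kb at each end were at 65.7% (62.1% to 69.2%) for Magel2, 66.0% (57.9% to 73.5%) for Mkrn3 and 36.2% (26.5% to 46.7%, 94 read counts) for Peg12. Ndn is too short for this and its whole span was at 23.6%. The body of Snrpn, which is 467683 bp long, was at 60.6% (59.6% to 61.6%, 8836 read counts), below that of Ube3a.

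Along the domain, the level was taken in bins of 50 kb from 1 Mb below Ube3a to 1 Mb above Peg12, and all were measured. Their median was 67.7%, against 71.4% for 47866 autosomal bins (quartiles 66.0% and 76.1%). In 7 of the 106 bins, 6.6%, the level was under the 5th percentile of autosomal bins, 45.6%, a share near the 5% that this percentile sets. Of these, 5 held a member, as did 18 of all 106 bins. The lowest bin, at 26.7%, held the start of Ube3a, and the highest, at 91.1%, lay in the body of the same gene. Peg12 (32.3%), Ndn (41.2%), Mkrn3 (44.2%) and the upstream part of Snrpn (45.1%) accounted for the other 4. In the 2 bins without a member lie the CpG-denser ends of Otud7a and Chrna7, at 6.36% and 5.99%.

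From Ndn to Peg12 the level was 38.5% (37.4% to 39.6%). Outside CpG-dense regions it was 59.2% (57.6% to 60.8%, 3638 read counts), still below the 75.2% of autosomal CpGs outside such regions. By the same measure the part of Snrpn upstream of its CpG-dense start was at 65.6%, and the 1.9 Mb from Snrpn to Ndn, which holds no member, was at 65.6%. The 2 arrays of snoRNA genes between Ube3a and Snrpn, with 134 genes on the Ube3a side of Ipw and 70 from Ipw on, were at 70.6% and 70.8% over all CpGs. Only 42.4% and 43.0% of their CpGs had reads.

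**Figure D4:**
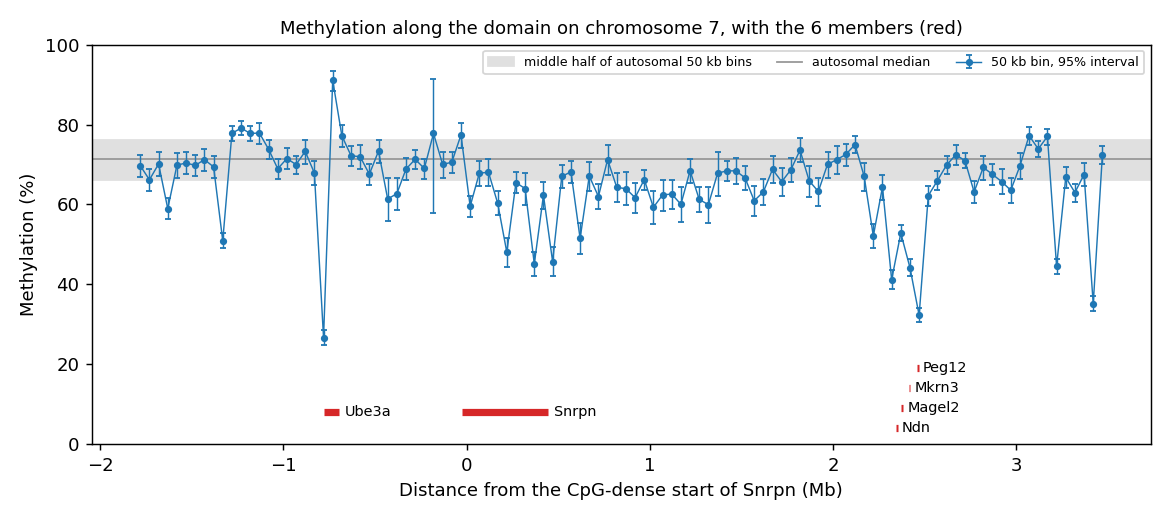
Methylation (%) of 50 kb bins on chromosome 7 by distance in Mb from start 4 of Snrpn, with 95% Clopper-Pearson intervals, the middle 2 quartiles of autosomal bins (grey) and the spans of the members (red). The bins at the start of Ube3a (26.7%) and at Peg12 (32.3%) are the 2 lowest, and the bin in the body of Ube3a (91.1%) is the highest.

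Other genes of the domain and its surroundings were measured 1 kb on either side of their CpG-denser end. Of 8 listed genes of the domain, Snord116, Snord115 and Snord107 matched no symbol of the table. The other 5 had a median of 61.8%, with Snurf, which shares start 4 of Snrpn, lowest at 41.4% and the Ube3a end of Snhg14 highest at 92.0%. Ipw was at 60.6%, Snord64 at 61.8% and Atp10a, a lipid transporter gene, at 71.9%. Of 12 neighbouring genes that are not imprinted in most tissues, 11 were called low, with a median of 6.17% and the exception of the pigmentation gene Oca2 at 74.8%. Over autosomal protein-coding starts, 1 kb on either side, 56.1% were called low. The ends of the neighbours were picked by CpG density, so the shares are not strictly alike.

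The shared start of Snrpn and Snurf, at 41.4% (36.3% to 46.7%), was set beside 15 loci elsewhere in the genome with germline methylation of the maternal copy. Their median was 38.6%, and the level itself lay within 30% to 70% at 13. By their intervals 10 were called intermediate, 2 low and 3 unresolved. Over autosomal protein-coding starts, 1 kb on either side, 6.56% were called intermediate and 56.1% low. Of the 15 loci, the lowest was the growth factor adaptor gene Grb10 at 6.42% and the highest Impact at 58.4%. Each was measured at its CpG-denser gene end. Whether that end holds the germline-methylated region was not tested, so a low value need not be the level of the imprint. The wide start windows of Ndn, Magel2, Mkrn3 and Peg12, given above, were all under 30%, and so below those 13 loci by the way these were counted. Inpp5f, at 13.3%, lay below Ndn, Magel2 and Mkrn3 but above Peg12, and Grb10 lay below all of them.

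Motifs were counted in the 300 bp sequences on both strands. CGCATGCG, which reads the same on both strands and lies within the binding motif of the transcription factor NRF1, was chosen after the sequences were seen. It occurred in all 4 starts of Snrpn and in that of Ndn, and not in those of Ube3a, Magel2, Mkrn3 and Peg12. Of 32817 RefSeq promoters 1.86% hold it, and the Snrpn starts 1 to 3 are near copies. Its 2 CpGs were methylated in 2 of 7 and 2 of 6 read counts at Snrpn start 1, 6 of 14 and 5 of 13 at start 2, and 12 of 14 and 8 of 11 at start 3, and 2 of 8 and 4 of 9 at start 4. In Ndn each of them had 0 of 5. TGCCGC is the motif of ZFP57, a zinc finger protein that keeps imprints methylated in the early embryo. It occurred in start 4 of Snrpn and in none of the other 8 sequences. Of the RefSeq promoters 11.6% hold it, a share near that 1 of 9, so its presence does not set start 4 apart. The CpG within TGCCGC was methylated in 6 of 15. Binding of either factor was not measured.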

How the data were processed

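The epiblast of 2 wild-type female embryo samples was measured by whole-genome bisulfite sequencing. The counts deposited by the authors give methylated and unmethylated reads per CpG and strand, without normalization, in 1 table, taken here as the pool of both samples. Per the submitters' processing notes, the build was mm10 and cutadapt 1.3, Bismark 0.12.5 and Bowtie2 2.1.0 were named, with no role or order. How the samples were combined and whether duplicate reads were removed is not given in the sources used here.

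Both strands of a CpG were summed. Levels, exact Clopper-Pearson intervals and calls were computed with Python 3.11.15, NumPy 2.4.6, pandas 2.3.3 and SciPy 1.17.1, and the code was tested on simulated data. Gene ends, starts and sequences came from RefSeq (GRCm38.p6), and all 6 members matched. No test was made, as the 2 replicate samples cannot be told apart in the table. Members and lists were chosen with earlier results of these data known. Named genes were all members, and other listed genes were named at extremes or where the text turns on them. The comparisons with quartiles of autosomal starts, levels outside CpG-dense regions and motifs were added after the data were seen. Alternatives were depth minimums, single strands, other summaries, windows, bins and density thresholds.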

Additional observations from a re-analysis of the deposited data

How the results depend on the processing

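Of 202 recomputed values over 28 results, 43 moved and 159 did not. A level moved when it left the interval of the value reported, and the share of autosomal CpG-dense regions called intermediate when it changed by over 1.5 times. That share was 6.54% at the lowest, where a region needed 25 CpGs in 500 bp, against 8.51% as reported. No replicate could be left out, since the table has no column per sample, and no paired analysis was possible because there is 1 group. The level at the CpG-dense start of Snrpn was 33.0% with at least 10 reads per CpG, and within its interval in the other 8 alternatives. With 500 bp on either side the start was at 13.2% for Ndn, 14.0% for Magel2 and 16.8% for Mkrn3. With 250 bp it was at 2.67% for Ube3a, 8.80% for Ndn, 9.56% for Magel2, 11.2% for Mkrn3 and 11.5% for Peg12. With 1 CpG per 100 bp it was at 25.4% for Ndn, 29.8% for Mkrn3 and 9.72% for Peg12. As a mean of CpG fractions it was at 25.7% for Magel2 and 27.8% for Mkrn3, with at least 10 reads per CpG at 18.2% and 19.4%, and with the minus strand alone at 17.9% for Magel2. The body of Snrpn was at 61.6% as a mean of CpG fractions, 55.3% with at least 10 reads per CpG, 63.2% with 1 CpG per 100 bp and 65.4% without CpG-dense regions. The body of Ube3a was at 80.6% with at least 10 reads per CpG, 87.5% on the minus strand, 86.5% without CpG-dense regions and 38.9% with its ends. The median along the domain was 66.7% with 100 kb bins. Beyond what narrower or wider windows take in by construction, the cause of these shifts was not tested. Few reads limit the upstream starts of Snrpn and the snoRNA arrays.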
